A study of Mus musculus with 8 samples.

Results

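NODAL and LEFTY signalling genes were examined in mouse prospermatogonia, the arrested germ cells of the male fetus, at E17.5 (days of embryonic development). The set held 9 genes chosen by role and symbol: the ligand Nodal, the inhibitors Lefty1 and Lefty2, the co-receptor Tdgf1, the receptors Acvr1b and Acvr2b, the transducers Smad2 and Smad3, and their DNA-binding partner Foxh1. All 9 were found once each among the 55401 genes of the count table, and all 9 passed the low-count filter that left 24005 genes. RNA sequencing covered 4 libraries labelled KO (genotype Tet1-/-) and 4 labelled WT (Tet1+/+), in a single batch by the labels. Libraries were made from 5 ng of ribosome-depleted total RNA. Neither the kind of Tet1 allele, nor the way of isolating the cells, nor the number of animals behind the libraries is stated in the sources used. The p-values therefore measure the spread between these libraries.

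NODAL is a secreted ligand of the TGF-beta superfamily. With the co-receptor CRIPTO (the product of Tdgf1) it engages type I and type II activin receptors, which phosphorylate SMAD2 and SMAD3. These enter the nucleus with SMAD4 and bind DNA with FOXH1, where they activate Nodal itself and both Lefty genes, so that the pathway induces its own ligand and its own secreted inhibitors. In the fetal testis, male germ cells are known for a transient phase of NODAL activity soon after sex determination, alongside pluripotency genes, before they enter mitotic arrest.

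The set was proposed with the KO against WT differences of these libraries already known, among which Lefty1, Lefty2 and Nodal were some of the largest. Those differences are given as a description, with no test. Total counts ran from 13820764 to 20115250 per library, and a count of 0 would have allowed up to 3 counts, or 0.146 to 0.221 CPM (counts scaled to a common library total, with library sizes adjusted by TMM, the trimmed mean of M values). The Tet1 count went against the labels, with 124 ± 33.4 CPM (SD, n = 4) in the libraries labelled KO and 31.9 ± 1.95 CPM (SD, n = 4) in those labelled WT. A count per gene does not show which exons were read, so every direction refers to the labels as deposited. Germ cell markers were abundant in all libraries: the 14 listed genes, such as Ddx4 and Dazl, summed to 2892 to 3676 CPM in the libraries labelled KO and 2799 to 3457 CPM in those labelled WT. Within that sum 7 genes rose and 4 fell, against 25.3% higher and 28.2% lower among all tested genes. Among the 7, Dppa3 had 235 ± 75.2 against 14.3 ± 6.35 CPM (SD, n = 4) and Nanos3 7.12 ± 3.29 against 1.65 ± 0.8291 CPM. Among the 4, Mael had 192 ± 23.0 against 420 ± 29.1 CPM and Dnmt3l 94.7 ± 9.38 against 238 ± 52.8 CPM. KO 4 stood apart. The 10 Leydig and interstitial markers summed to 1793 CPM there, against 40.4 to 59.9 CPM in the other libraries labelled KO and 42.8 to 66.0 CPM in those labelled WT, and Insl3, a Leydig hormone gene, had 387 counts in KO 4 and at most 2 elsewhere. The 13 Sertoli markers summed to 37.0 to 62.8 CPM (at most 43.5 CPM without KO 4) against 34.1 to 53.8 CPM. The 5 peritubular myoid markers summed to 17.6 to 30.1 CPM against 43.7 to 80.0 CPM, and the 6 endothelial markers to 66.1 to 80.1 CPM against 75.7 to 88.5 CPM. Within the endothelial sum Pecam1 passed higher, with 30.5 ± 7.14 against 15.3 ± 1.78 CPM (SD, n = 4), and the other 5 passed lower. Among all tested genes 25.3% were higher and 28.2% lower. Blood and macrophage markers, 8 genes, summed to 10.8 to 18.1 CPM (at most 11.8 CPM without KO 4) against 8.07 to 15.6 CPM. Their part in the results was not tested, except that values without KO 4 are given. In bulk RNA, fewer cells of a type and less RNA per cell cannot be told apart.

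Because Lefty1 and Lefty2 are close relatives, their coding sequences show how far reads could be assigned to one or the other. The 2 coding sequences had 1104 bases each in GENCODE M21 and aligned without a gap at 91.8% identity, with a longest identical run of 140 bases. Of all 50-base stretches of Lefty1 transcripts, 17.93% were also present in Lefty2, and 11.95% of those of Lefty2 in Lefty1. For 100-base stretches the shares were 5.85% and 3.86%. The read length is not stated in the sources used.

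Promoters were compared because TET1 acts on methylated cytosine, which lies mostly at CpG sites. RefSeq promoters (build GRCm38.p6) were matched by symbol for 5 of the 9 genes: Nodal, Tdgf1, Acvr1b, Acvr2b and Smad3. In the 250 bases before the start, Nodal had 3 CpG sites and Tdgf1 had 7, near the median of 6 over 32536 promoter windows of this length. Smad3 had 22, Acvr2b 24 and Acvr1b 42, and 99.1% of windows held fewer than Acvr1b. The promoters with the fewest and the most CpG sites, and that of the co-receptor, are shown 5′ to 3′ on the gene's strand with CpG sites in capitals. They lie at chr10:61417722-61417971 (plus strand), chr9:110946159-110946408 (minus strand) and chr15:101173822-101174071 (plus strand).
Nodal: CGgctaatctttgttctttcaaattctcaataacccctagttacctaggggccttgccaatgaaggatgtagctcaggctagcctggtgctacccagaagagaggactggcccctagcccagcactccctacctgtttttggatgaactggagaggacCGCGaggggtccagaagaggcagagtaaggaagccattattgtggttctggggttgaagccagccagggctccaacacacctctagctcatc
Tdgf1: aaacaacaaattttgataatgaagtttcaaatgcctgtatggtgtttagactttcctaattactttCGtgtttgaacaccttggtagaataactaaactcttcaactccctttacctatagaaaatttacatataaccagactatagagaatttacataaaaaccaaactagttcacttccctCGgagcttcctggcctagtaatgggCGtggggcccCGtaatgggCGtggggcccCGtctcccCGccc
Acvr1b: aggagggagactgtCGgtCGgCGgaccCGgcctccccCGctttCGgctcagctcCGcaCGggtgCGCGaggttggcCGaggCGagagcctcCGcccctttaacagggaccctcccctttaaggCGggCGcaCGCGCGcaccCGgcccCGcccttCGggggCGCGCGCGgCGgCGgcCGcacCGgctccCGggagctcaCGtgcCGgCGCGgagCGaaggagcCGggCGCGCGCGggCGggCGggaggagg
Motifs were searched on both strands of the same windows. The FOXH1 core AATCCACA, present in 0.7% of all windows, was in none of the 5. Its relaxed form AATNNACA, which includes the core and was in 10.9% of windows, occurred 2 times in Tdgf1, 127 and 101 bases before the start (counted to the motif's 5′ end). The SMAD box CAGAC, in 42.2% of windows, occurred once each in Tdgf1 and Acvr2b, and the palindrome GTCTAGAC, in 0.17%, in none. These matches are descriptions of letters in this window only.

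The ligand was almost silent in the libraries labelled WT and plainly present in those labelled KO. Nodal (ENSMUSG00000037171, chromosome 10, 61417972 to 61425338, plus strand, GRCm38) had 0.51, 0.70, 1.07 and 0.78 CPM in WT 1 to WT 4, from 10 to 22 counts each. It had 18.4, 19.5, 12.5 and 16.3 CPM in KO 1 to KO 4, from 169 to 343 counts. The groups did not overlap, and KO 3 was the lowest library labelled KO. The log2 difference was 4.43 (SE 0.252), the rank 13 from the top among all genes tested, and 4.46 without KO 4. The rank refers to all 8 libraries. The Leydig and interstitial markers Cyp17a1, Hsd3b1 and Cyp11a1 held ranks 1, 8 and 10, and they were high in KO 4 only (862, 168 and 369 CPM).

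The secreted inhibitors differed more than the ligand. Lefty1 (chromosome 1, 180935022 to 180938400) had 1.02, 0.99, 0.63 and 0.78 CPM in WT 1 to WT 4 and 86.1, 72.3, 49.2 and 68.9 CPM in KO 1 to KO 4. Lefty2 (chromosome 1, 180893108 to 180899103) had 2.15, 2.90, 2.09 and 2.01 CPM in WT 1 to WT 4 and 188, 211, 109 and 184 CPM in KO 1 to KO 4. KO 3 was again the lowest of its group for both, and neither gene overlapped between groups. The log2 difference was 6.33 (SE 0.223) for Lefty1 and 6.24 (SE 0.228) for Lefty2, and 6.36 and 6.23 without KO 4. Over all 8 libraries these were ranks 2 and 3 from the top, below Cyp17a1.

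No difference was detectable in the proportion of Lefty1 to Lefty2. Per exon length, Lefty1 made up 37.6% ± 3.33 (SD, n = 4) of LEFTY counts in the libraries labelled KO and 35.6% ± 4.48 (SD, n = 4) in those labelled WT. The ranges, 33.7% to 40.5% and 31.0% to 41.4%, overlapped. The difference of 1.93 percentage points was within the spread between libraries (exact two-sided permutation p = 0.543 over 70 splits, where 0.0286 is the smallest possible). The share in the libraries labelled WT rested on 62 counts of Lefty1 and 166 of Lefty2 in all, and the exact 95% intervals of single libraries, in raw counts, ran from 13.0% to 45.3% there.

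**Figure D1:**
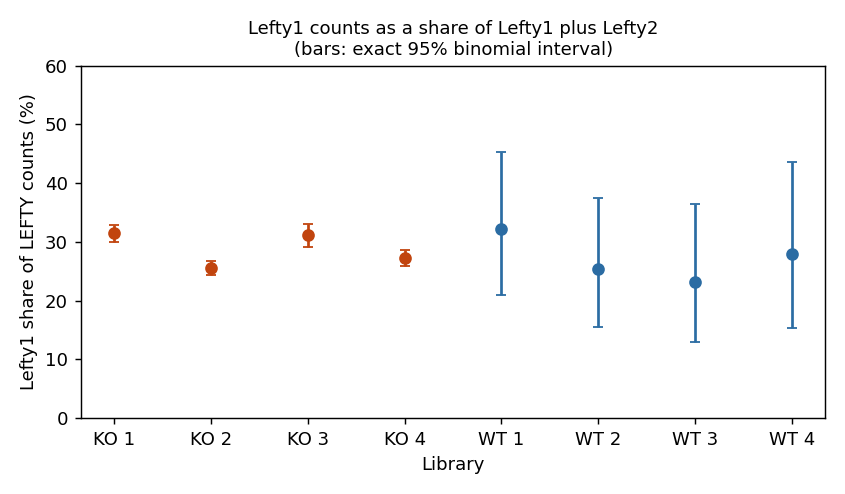
Lefty1 counts as a percentage of Lefty1 plus Lefty2 counts in each of the 8 libraries, not divided by exon length, with exact (Clopper-Pearson) 95% binomial intervals that cover counting error only. The libraries labelled KO sit between 25.5% and 31.4%, inside the wide intervals of those labelled WT.

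For the co-receptor no difference was detectable. Tdgf1 (chromosome 9, 110939603 to 110946158, minus strand), which encodes CRIPTO, had 2.45, 2.27, 2.07 and 3.73 CPM in KO 1 to KO 4 and 2.25, 3.14, 1.70 and 1.94 CPM in WT 1 to WT 4. The groups overlapped, and KO 4 was the highest library. The log2 difference was 0.22 (SE 0.294), 0.03 without KO 4 and -0.02 with upper-quartile scaling. With 28 to 58 counts per library, a modest difference would not have been detectable.

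The receptor genes were present in both groups and differed little. Acvr1b (chromosome 15, 101174067 to 101213684), which encodes the type I receptor ALK4, had 25.6, 29.6, 26.5 and 32.7 CPM in KO 1 to KO 4 and 20.1, 17.48, 19.4 and 20.1 CPM in WT 1 to WT 4. Acvr2b (chromosome 9, 119402118 to 119434995), a type II receptor, had 51.9, 51.8, 43.2 and 43.0 CPM against 34.1, 35.3, 31.0 and 36.9 CPM. For both genes the ranges of the groups did not overlap, with KO the higher. The log2 differences were 0.57 (SE 0.124) and 0.47 (SE 0.113), and 0.33 and 0.23 with upper-quartile scaling, under which the median of all genes was -0.29 against -0.05 here. An antisense gene overlaps 3909 bases of Acvr2b, with a mean of 9.25 counts per library, and without a stated strand setting its reads cannot be told apart.

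Of the receptor-regulated SMADs, Smad3 had the larger difference. Smad3 (chromosome 9, 63646767 to 63757994) had 22.8, 32.3, 19.8 and 32.2 CPM in KO 1 to KO 4 and 11.3, 11.8, 9.83 and 9.06 CPM in WT 1 to WT 4, with no overlap. Smad2 (chromosome 18, 76241580 to 76310963) had 91.3, 105, 86.4 and 108 CPM against 76.4, 79.9, 85.3 and 79.9 CPM, where KO 3 was only just above WT 3. The log2 difference was 1.35 (SE 0.179) for Smad3 and 0.28 (SE 0.103) for Smad2. For Smad2 it was 0.04 with upper-quartile scaling and 0.10 with scaling on ribosomal protein genes, and it was past the threshold under 7 of 16 alternatives, not without KO 2, KO 4, WT 1 or WT 4. Foxh1 (chromosome 15, 76668225 to 76669948), whose product brings SMAD2 and SMAD3 to DNA, had 10.9983, 8.57, 7.90 and 10.6 CPM in KO 1 to KO 4 and 0.87, 1.80, 1.12 and 2.14 CPM in WT 1 to WT 4. It did not overlap between groups, with a log2 difference of 2.70 (SE 0.277), 2.67 without KO 4.

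Past the threshold of edgeR (Benjamini-Hochberg adjusted p under 0.05 over all genes tested) and higher in the libraries labelled KO were 8 of the 9 genes, against a background of 25.3% of all tested genes higher, 28.2% lower and 53.5% in either direction. The groups did not overlap for the same 8 genes, where 23.2% of all genes were higher without overlap and 25.1% lower. Without KO 4, 7 of the 9 passed, all but Tdgf1 and Smad2, against 22.5% of all genes higher, 24.7% lower and 47.3% in either direction. Without that library, groups were apart for 24.1% of all genes with KO above and 26.6% with KO below. Nothing is read from these counts, since the contrast was known when the genes were chosen. With upper-quartile scaling or scaling on ribosomal protein genes 6 of the 9 passed, with Smad2 and Acvr2b also short of the threshold. Of all 24005 genes tested, 4033 were higher and 8882 lower with upper-quartile scaling. With scaling on ribosomal protein genes 4073 were higher and 7733 lower.

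Per kb of exon, the order of the 9 genes was different in the 2 groups. In the libraries labelled WT, Smad2 (9.15 ± 0.417 CPM per kb, SD, n = 4) and Acvr2b (8.74 ± 0.634) were the highest and overlapped, followed by Acvr1b (4.36 ± 0.282) and Smad3 (1.89 ± 0.230), each separate from its neighbours. Foxh1 (1.09 ± 0.430), Lefty2 (0.877 ± 0.159) and Tdgf1 (0.862 ± 0.239) came next with overlapping ranges. Lefty1 (0.487 ± 0.105) and Nodal (0.365 ± 0.111) were the lowest and overlapped. The receptors and SMADs were thus the abundant part of the set, and the ligand, the inhibitors, the co-receptor and Foxh1 the scarce part.

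In the libraries labelled KO, Lefty2 (66.2 ± 16.98 CPM per kb, SD, n = 4) and Lefty1 (39.3 ± 8.66) were at the top and overlapped each other, clear of Acvr2b (12.1 ± 1.29) and Smad2 (11.1 ± 1.19). Nodal (7.95 ± 1.47), Foxh1 (6.97 ± 1.11), Acvr1b (6.47 ± 0.732) and Smad3 (4.83 ± 1.16) followed, each overlapping the next. Tdgf1 (1.00 ± 0.286) was the lowest and separate. Among the libraries labelled KO, KO 3 had the lowest level for 7 of the 9 genes, KO 1 for Acvr1b and KO 4 for Acvr2b. The coefficient of variation among these libraries ran from 10.7% for Acvr2b and Smad2 to 28.5% for Tdgf1, with 18.5% for Nodal, 22.0% for Lefty1, 24.1% for Smad3 and 25.7% for Lefty2.

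**Figure D2:**
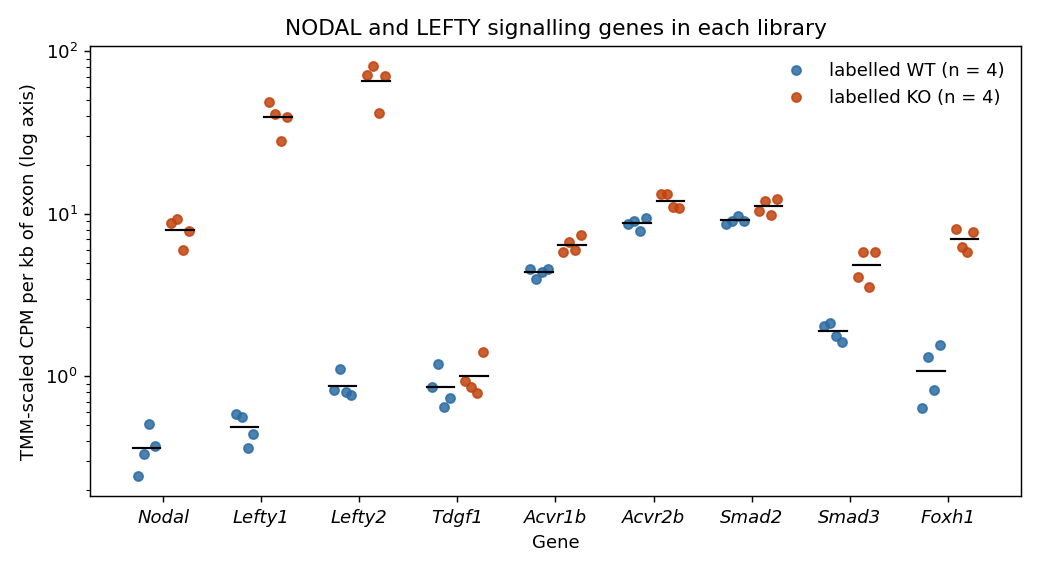
Level of each of the 9 genes in every library, in TMM-scaled CPM per kb of exon on a log axis, with blue points for the 4 libraries labelled WT, orange points for the 4 labelled KO and a black line at each mean. Lefty1 and Lefty2 are among the 4 lowest genes in the libraries labelled WT and the 2 highest in those labelled KO, and Tdgf1 overlaps between groups.

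Nodal lies on the same chromosome as Tet1, with 1.38 Mb between the ends of the genes. Of the 24 protein-coding genes tested in that interval, 11 passed higher, 7 lower and 6 did not pass. Their log2 differences ran from -2.27 (Hkdc1) to 2.94 (Neurog3), median 0.24. Counting genes of every kind, the interval held 36 tested genes. Of these, 12 passed higher, 8 passed lower and 16 did not, median 0.05. Across the 24005 genes tested, also of every kind, 25.3% passed higher and 28.2% passed lower, median -0.05. That background matches the count of 36 in kind, not the protein-coding count. Among the nearest neighbours of Nodal, within 100 kb, Eif4ebp2 had a difference of 0.02 (SE 0.097, edgeR adjusted p = 0.880) and Lrrc20 of 0.08 (SE 0.145, adjusted p = 0.659). Pald1 passed at 0.43 (SE 0.157, adjusted p = 0.0339) but not with upper-quartile or ribosomal protein scaling, nor without KO 2, WT 1, WT 2 or WT 3. The difference of Nodal was larger than that of each of these neighbours, but Nodal was chosen with its difference already known. Nothing is read from that comparison.

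**Figure D3:**
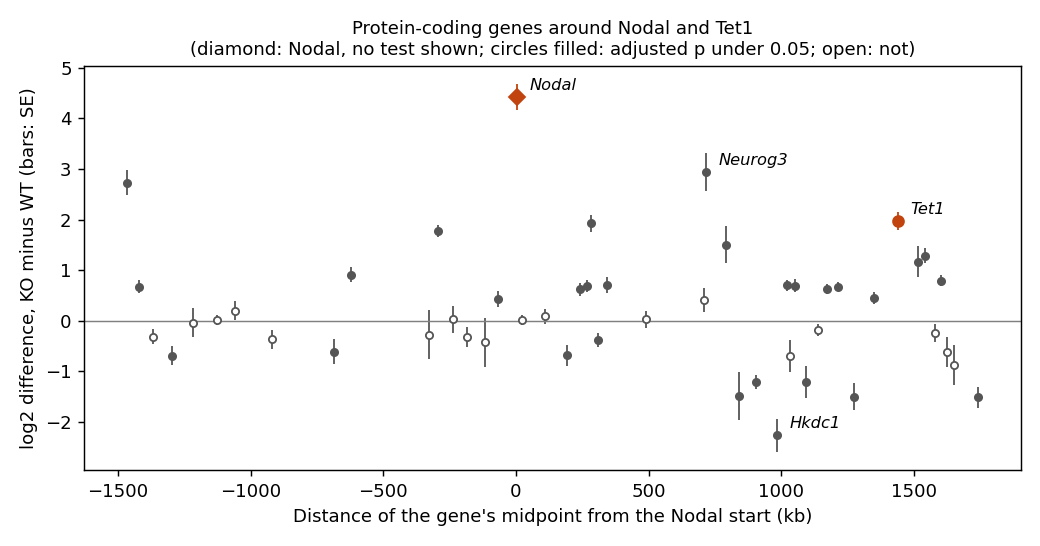
The log2 difference (KO minus WT, bars give the SE) of each tested protein-coding gene around Nodal and Tet1, against the distance of its midpoint from the start of Nodal in kb. Nodal, at 4.43, stands above all others shown, and genes between Nodal and Tet1 lie on both sides of 0.

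Lefty2 and Lefty1 lie next to each other on chromosome 1. Of their neighbours within 100 kb, Tmem63a rose by 0.82 (SE 0.149, edgeR adjusted p = 0.000513), from 19.0 ± 1.56 to 33.6 ± 6.52 CPM (SD, n = 4). The histone gene H3f3a (-0.28, adjusted p = 0.0833) and Sde2 (-0.19, adjusted p = 0.125) did not pass. Both passed lower with upper-quartile scaling (H3f3a -0.52, adjusted p = 0.00354, and Sde2 -0.43, adjusted p = 0.00175) and when scaled on ribosomal protein genes, and H3f3a also without WT 2 and with the stricter low-count filter. Ephx1 had a difference of 1.63 (adjusted p = 0.102) that was -0.47 without KO 4, where it had 26.1 CPM against 1.19 to 2.32 CPM in the other libraries labelled KO.

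The genes whose profile was closest to that of Nodal over the 8 libraries were named by the root-mean-square difference of centred log2(CPM + 1) values among 15242 protein-coding genes. They were Mycn (0.127), Ptma (0.200), Gpx1 (0.204), Nanog (0.217) and Hist2h2ac (0.257). Among those closest to Lefty1 were Hist1h1b (0.434), Sox2 (0.660), Dppa5a (0.682) and Hist1h1d (0.766). Among the other 8 genes of the set, the closest to Lefty1 was Lefty2 (0.283), and the closest to Nodal was Foxh1 (0.663). The measure mixes the step between groups with the spread within them, and reads of histone genes, Ptma and Dppa5a may be shared with close copies.

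The rest of the NODAL and activin pathway, 58 further genes listed by textbook role, moved in both directions. Of 55 tested, 23 were past the threshold higher in the libraries labelled KO, 12 lower and 20 did not pass, against 25.3% higher and 28.2% lower among all tested genes. Their median log2 difference was 0.15, against -0.05 for all genes. With upper-quartile scaling 15 were higher and 16 lower, where 4033 of all 24005 genes tested were higher and 8882 lower. With scaling on ribosomal protein genes 15 were higher and 13 lower, where 4073 of all genes were higher and 7733 lower. The counts of these genes thus moved with the scaling, as did those of all genes. Without KO 4, 20 were higher and 12 lower, against 22.5% and 24.7% of all genes tested.

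Of 8 other ligands, 6 were tested, 2 rose and 1 fell, against 25.3% higher and 28.2% lower among all tested genes. Gdf3, a NODAL-related ligand that also uses CRIPTO, rose by 1.70 (SE 0.336, edgeR adjusted p = 0.000950), from 1.14 ± 0.508 to 3.72 ± 0.827 CPM (SD, n = 4). Inhba, which encodes an activin subunit, rose by 0.82 (adjusted p = 0.0275), but by 0.54 without KO 4 (adjusted p = 0.104), and it did not pass without WT 1 or WT 3 or with upper-quartile or ribosomal protein scaling either. Inhbe fell by 1.76 (adjusted p = 0.000508). Inhbb, the other main activin subunit, had a difference of -0.76 (adjusted p = 0.167) with 15.4 CPM in KO 4 against 3.51 to 4.21 CPM in the other libraries labelled KO. Without KO 4 it fell by 1.56 (adjusted p = 0.00118). Inhbc (-1.02, adjusted p = 0.142) and Gdf11 (-0.28, adjusted p = 0.367) did not pass, though Inhbc passed lower without KO 3 (-2.01, adjusted p = 0.00459). Of the processing protease genes, Pcsk5 (-0.17, adjusted p = 0.547), Pcsk6 (-0.22, adjusted p = 0.605) and Furin (0.31, adjusted p = 0.0693) did not pass. Pcsk6 passed lower without KO 4 (-0.73, adjusted p = 0.0211), and Furin passed higher without KO 3 (0.44, adjusted p = 0.00755) and with DESeq2 (adjusted p = 0.0453).

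Of 8 antagonists, 3 were higher, 3 lower and 2 did not pass, against 25.3% higher and 28.2% lower among all tested genes. Cer1, a secreted NODAL inhibitor of the Cerberus family, fell by 2.99 (SE 0.389, edgeR adjusted p = 4.34e-05), opposite to the LEFTY genes. It had 3.64, 4.12, 3.07 and 2.33 CPM in WT 1 to WT 4 and 0.40, 0.34, 0.74 and 0.19 CPM in KO 1 to KO 4, with no overlap. Its relative Dand5 rose by 1.27 (adjusted p = 0.0130) at a similarly low level, from 1.14 ± 0.553 to 2.76 ± 0.996 CPM (SD, n = 4). Fst, which encodes the activin-binding protein follistatin, fell by 0.78 (adjusted p = 0.00326). Tmeff1, a membrane protein that binds CRIPTO, rose by 0.97 (adjusted p = 0.00241) and Tmeff2 fell by 1.70 (adjusted p = 1.17e-05). Inha, the inhibin subunit gene, passed at 3.51 (adjusted p = 0.00897) with 58.3 CPM in KO 4 against 2.21 to 2.36 CPM in the other libraries labelled KO and 1.23 to 1.63 CPM in those labelled WT. Without KO 4 its difference was 0.71 (adjusted p = 0.0660). Fstl3 (-0.36, adjusted p = 0.341) and Bambi (-0.27, adjusted p = 0.204) did not pass, though Bambi passed lower with upper-quartile scaling (-0.51, adjusted p = 0.0268).

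Of 4 further receptors and co-receptors, 3 were tested, 1 fell and 2 did not pass. Among all tested genes 25.3% were higher and 28.2% lower. Acvr2a, the other type II activin receptor, had 28.1 ± 1.502 against 25.1 ± 2.72 CPM (SD, n = 4), a difference of 0.16 (SE 0.119, edgeR adjusted p = 0.271). Acvr1c, which encodes the type I receptor ALK7, had 0.718 ± 0.699 against 1.40 ± 0.685 CPM (SD, n = 4) and did not pass (-1.01, adjusted p = 0.235). Tgfbr3, the betaglycan co-receptor gene, fell by 0.73 (adjusted p = 0.00885). The CRIPTO relative Cfc1 was not tested, with at most 19 counts in a library.

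Inhibitory and adaptor genes downstream of the receptors followed, of which 3 of 4 rose and 1 did not pass. Among all tested genes 25.3% were higher and 28.2% lower. Smad7, which encodes the inhibitory SMAD induced by TGF-beta signals, rose by 1.52 (SE 0.151, edgeR adjusted p = 6.00e-06), with 50.2, 61.0, 38.5 and 59.1 CPM in KO 1 to KO 4 against 17.47, 20.9, 16.6 and 17.6 CPM in WT 1 to WT 4. Zfyve9, which encodes the SMAD anchor SARA, rose by 0.85 (adjusted p = 3.11e-05), and Hgs by 0.31 (adjusted p = 0.0153). The call for Hgs was lost without WT 1, under upper-quartile scaling (0.075) and when scaled on ribosomal protein genes (0.13). Smad4, the shared partner of all receptor-regulated SMADs, had 60.5 ± 9.86 against 55.2 ± 1.98 CPM (SD, n = 4) and did not pass (0.13, adjusted p = 0.368).

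Of 11 nuclear co-regulators, 7 rose and 4 did not pass, against 25.3% higher and 28.2% lower among all tested genes. Crebbp was among those that did not pass (-0.26, edgeR adjusted p = 0.0812). The SMAD corepressor gene Ski rose by 1.04 (adjusted p = 3.64e-05) and the coactivator gene Ncoa3 by 1.196 (adjusted p = 6.66e-06). Ep300 passed at 0.30 (adjusted p = 0.0282) but not with upper-quartile or ribosomal protein scaling, nor without WT 1 or WT 2. With upper-quartile scaling Crebbp fell by 0.49, and it also passed lower without KO 2. Tgif1, chosen after its values were seen, encodes a repressor of SMAD2 and SMAD3 activity and rose by 2.71 (adjusted p = 8.89e-07), from 5.18 ± 0.532 to 33.8 ± 9.68 CPM (SD, n = 4), while its relative Tgif2 did not pass (0.15, adjusted p = 0.450). Of 6 ubiquitin ligase and phosphatase genes, 4 rose, 1 fell and 1 did not pass, against the same 25.3% and 28.2% of all tested genes. Smurf1 rose by 0.64 (adjusted p = 0.00461) and Rnf111, which encodes Arkadia, by 0.33 (adjusted p = 0.0112, but 0.408 with upper-quartile scaling, where the difference was 0.096), and Nedd4l, whose product marks activated SMAD2 and SMAD3 for degradation, fell by 0.55 (adjusted p = 0.000967). Wwp2 had a difference of 0.21 (adjusted p = 0.302).

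Of 14 target genes, 4 rose, 6 fell and 4 did not pass, against 25.3% higher and 28.2% lower among all tested genes. Whether these shares differed from those of all genes was not tested. Named after their values were seen, Lhx1 rose by 2.51 (edgeR adjusted p = 2.66e-05) and Otx2 by 1.31 (adjusted p = 0.0206, but 0.0603 without KO 1, 0.0515 without KO 2, 0.0506 when scaled on ribosomal protein genes and 0.0539 on upper quartiles). The 6 genes that fell were also named after their values were seen: T (-1.31, adjusted p = 0.000470), Mixl1 (-1.55, adjusted p = 0.00348), Sox17 (-2.32, adjusted p = 0.00275), Foxa2 (-1.22, adjusted p = 0.0444), Gsc (-0.78, adjusted p = 0.0365) and Eomes (-0.70, adjusted p = 0.0426). All 6 were low, with means of 9.26 CPM (SD 2.34, n = 4) or less in the libraries labelled WT. WT 2 was the highest library for all 6, and without it Foxa2 (adjusted p = 0.202), Gsc (adjusted p = 0.129) and Eomes (adjusted p = 0.157) did not pass. Foxa2 and Gsc were also lost without KO 1, KO 2, KO 4 or WT 1, and Eomes without KO 1, KO 3, KO 4 or WT 3. Pmepa1, a general TGF-beta target, had 29.4 ± 1.65 against 30.1 ± 5.31 CPM (SD, n = 4) and a difference of -0.03 (adjusted p = 0.858), and Ltbp3 did not pass (-0.39, adjusted p = 0.122). Ltbp3 passed lower without KO 4 (-0.60, adjusted p = 0.0148) and with upper-quartile scaling.

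**Figure D4:**
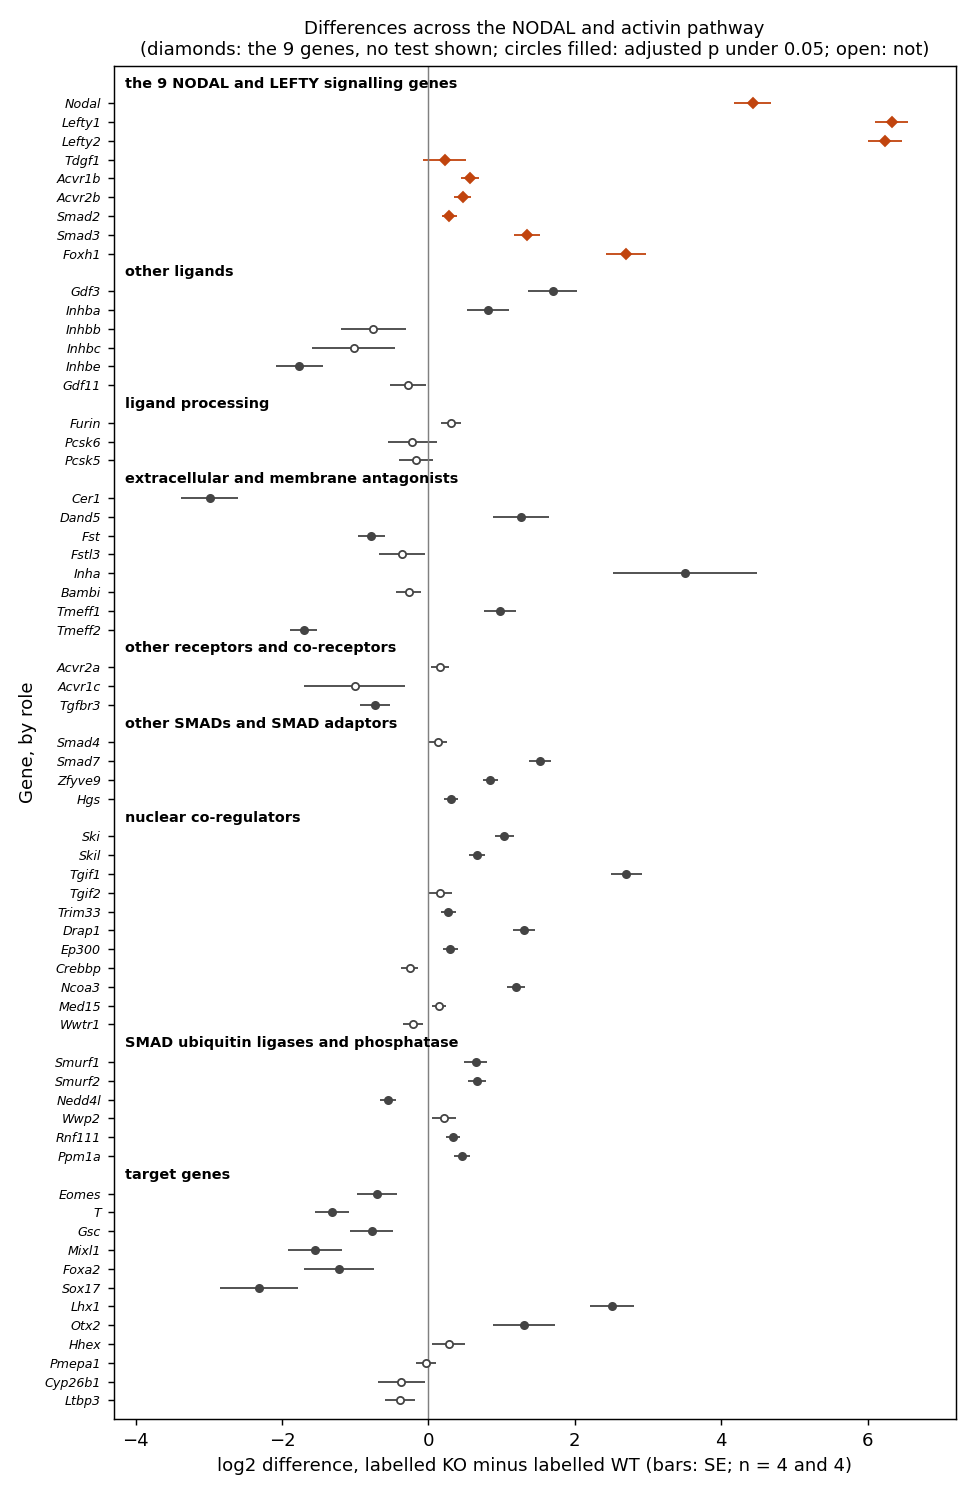
The log2 difference, KO minus WT, of the 9 genes (diamonds) and of other tested pathway genes (circles, not all drawn, filled past the edgeR threshold), grouped by role, with bars for the SE (4 and 4 libraries). Lefty1, Lefty2 and Nodal lie beyond 4, Cer1 lies near -3, and the receptor genes lie between -1.01 (Acvr1c) and 0.57 (Acvr1b).

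The closest relatives of these receptors and SMADs, in the BMP and TGF-beta branches, gave no simple contrast. Of 14 genes, 8 rose and 6 fell, against 25.3% and 28.2% of all tested genes. With scaling on ribosomal protein genes 4 rose and 6 fell, against 4073 and 7733 of all 24005 genes tested. Bmpr2 rose by 0.65 (edgeR adjusted p = 0.000276), Bmpr1a by 0.69 (adjusted p = 0.000296), the BMP transducer gene Smad5 by 1.15 (adjusted p = 6.34e-05) and Smad1 by 0.61 (adjusted p = 0.00469, but 0.0542 with ribosomal protein scaling). Tgfbr1 rose by 0.52 (adjusted p = 0.00111), and Tgfb1 (-0.52, adjusted p = 0.00263), Tgfb2 (-0.73, adjusted p = 0.0460) and Tgfbr2 (-0.91, adjusted p = 0.00497) fell. Tgfb2 kept its call only without KO 4, among the 8 libraries left out in turn. The differences of Acvr1b and Acvr2b, 0.57 and 0.47, lay in the same range as those of Bmpr2, Bmpr1a and Tgfbr1. Whether they differed from them was not tested.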

How the data were processed

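The authors deposited raw counts per gene for 8 libraries as whole numbers. The submitters' processing notes name featureCounts 1.5.0, STAR and Trim Galore, besides DESeq2 and edgeR, without roles, and build mm10. Neither UMI collapsing nor the strand setting is stated in the sources used. Symbols, exon lengths and positions came from GENCODE M21 (GRCm38) by Ensembl identifier without version, which matched 55141 of 55401 genes. Columns were matched to samples by library name, and the 2 groups and their replicate numbers were taken from the sample titles.

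The fit used R 4.3.3 and edgeR 4.0.16, with filterByExpr, TMM scaling and a quasi-likelihood fit with genotype as the only term, adjusted by Benjamini-Hochberg over all 24005 genes tested. The SE is the log2 difference divided by the root of the F statistic. Group values are mean CPM with the SD. The LEFTY share was compared by exact permutation. The fit was tested on simulated counts in which few genes changed, equally in both directions. That simulation did not test the scaling where many genes differ, as here. Alternatives were RLE, upper-quartile and ribosomal protein scaling, DESeq2 1.42.0, 2 other filters, robust dispersion, the replicate number as a block, and leaving out each library. The 9 genes and the lists were chosen with earlier results of these data known. Named singly were these genes, Tet1, all tested ligands, antagonists and receptors, up to 4 genes of highest level in each other role, neighbours within 100 kb, and the 5 genes most like Nodal and Lefty1. Further names were added after seeing values. Motifs and CpG counts used RefSeq promoter windows, and coding sequences were aligned with Biopython 1.88. Some genes and a sequence that these rules cover are not reported here, and counts over lists include them.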

Additional observations from a re-analysis of the deposited data

Results flagged for a closer look

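In 192 groups of 4 libraries (96 genes by 2 groups), 20 had 1 library far from the other libraries of its group, where chance gives about 1 in 20 groups. KO 4 was high for Inha (58.3 CPM), Inhbb (15.4 CPM), Pcsk6 (24.7 CPM), Tgfbr3 (23.1 CPM) and Ephx1 (26.1 CPM), and it is the library with the high Leydig marker sum. KO 3 was low for Tmeff1 (17.2 CPM), Mycn (49.9 CPM) and Nanog (17.6 CPM) and high for Inhbc (1.77 CPM). KO 2 was high for Hgs (119.985 CPM) and Nedd4l (81.4 CPM) and low for Tgfbr2 (2.33 CPM). WT 2 was high for Lefty2 (2.90 CPM), Gdf11 (14.2 CPM), Gsc (5.87 CPM) and Mixl1 (9.41 CPM) and low for Wwp2 (77.5 CPM). WT 4 was high for Smad4 (58.2 CPM) and Med15 (133 CPM) and low for Ephx1 (0.906 CPM). Of the 9 NODAL and LEFTY signalling genes, Lefty2 was the only one among these.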

How the results depend on the processing

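Nodal, Lefty1, Lefty2, Acvr1b, Smad3 and Foxh1 stayed past the threshold and higher in the libraries labelled KO under all 16 alternatives, Acvr2b under 14 and Smad2 under 7. These genes were chosen with the contrast known, and the alternatives refit the same libraries, so nothing is read from these counts. The ranges of the log2 difference were 4.19 to 4.67 for Nodal, 6.09 to 6.48 for Lefty1 and 5.99 to 6.43 for Lefty2. Leaving out each library in turn gave 7 to 8 of the 9 genes and 29 to 36 other pathway genes. It also gave 11 to 13 BMP and TGF-beta branch genes, and 11313 to 13265 of the 24491 to 25408 genes tested. It gave a difference in the LEFTY share of 0.39 to 3.87 percentage points. The replicate number did not pair the libraries throughout (same-number correlations of deviations 0.321, -0.287, -0.175 and -0.0568 for numbers 1 to 4). The best partner was WT 1 for KO 1, WT 4 for KO 2, WT 2 for KO 3 and WT 1 for KO 4. The library names of KO 1 and WT 1 carry the same leading number, whose meaning the labels do not give, and the other names share none. With the replicate number as a replicate block, 7 of the 9 genes, 31 other pathway genes and 11518 of all 24005 genes tested passed. Scaling moved the balance of all calls: 6083 higher and 6770 lower with TMM, 4033 and 8882 with upper-quartile scaling (median of all genes -0.29 against -0.05), and 4073 and 7733 with scaling on ribosomal protein genes (median -0.23). Differences that changed sign did so without passing, and the cause was not tested. With upper-quartile scaling they were Tdgf1 (-0.020), Acvr2a (-0.075), Smad4 (-0.11), Tgif2 (-0.088), Med15 (-0.094), Wwp2 (-0.030), Eif4ebp2 (-0.22) and Lrrc20 (-0.16). With ribosomal protein scaling they were Acvr2a (-0.019), Smad4 (-0.056), Tgif2 (-0.039), Med15 (-0.040), Eif4ebp2 (-0.16) and Lrrc20 (-0.11). Pmepa1 became 0.020 with no low-count filter and Eif4ebp2 -0.021 with the stricter filter. Leaving out each library gave -0.095 to 0.10 for Pmepa1, -0.0071 to 0.078 for Eif4ebp2, -0.44 to 0.030 for Pcsk5, -0.73 to 0.024 for Pcsk6 and -0.47 to 2.03 for Ephx1, each with both signs. DESeq2 gave no adjusted p for Inha and Ephx1. The counts of Nodal, Lefty1, Lefty2 and Foxh1 in the libraries labelled WT limit the precision of their differences.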
